A study of Mus musculus with 6 samples.

Results

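Fatty acid uptake and lipid storage were followed in mouse soleus through 6 genes, Cd36, Fabp4, Fabp3, Lpl, Lipe and Pparg, chosen by symbol in the platform annotation. Each gene had 1 probe, so 6 of the 223 probes, or 6 of the 203 named genes, were described. All 6 arrays came from soleus muscle of C57Bl/6 mice, titled wild type and reloaded for 1 day, with 3 micrograms of total RNA from cryosections on each array. The soleus is a postural calf muscle rich in slow, oxidative fibres. All 6 titles also begin with HUR, letters that the titles do not spell out. Reloading implies that the muscle was unloaded before, but the sources used here do not describe that treatment. They give no age or sex and do not state that the 6 samples came from separate animals, so the spread between them may be technical. There was 1 group, and no comparison between conditions was made.

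Fatty acids reach a muscle fibre from lipoproteins and from albumin in the blood. Lipoprotein lipase (Lpl) on the capillary wall frees fatty acids from triglyceride, CD36 in the cell membrane carries them across, and small fatty acid binding proteins hold them in the cytosol. FABP3 is the carrier of heart and skeletal muscle fibres. FABP4 is the carrier of fat cells and is also known from capillary endothelium and macrophages. Hormone-sensitive lipase (Lipe) releases fatty acids from stored fat, and PPARG is the nuclear receptor that drives fat cell formation. In whole muscle RNA, fewer cells of a type and less RNA per cell cannot be told apart.

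Promoter sequence is shown for 3 of the genes, because they stand for different kinds of variation between the samples described further on: Fabp3 varied little relative to the array median, Cd36 was bright and varied little on the same scale, and Pparg varied most on it. Other scalings gave other orders. The windows are the 250 bases upstream of a transcription start in RefSeq, build GRCm38.p6, read 5′ to 3′ on the gene's strand. Capitals mark CANNTG, the E-box letters read by myogenic factors, and AGGTCA on either strand, the half-site of nuclear receptors. Fabp3 is at chr4:130308488-130308737 (plus strand), Cd36 at chr5:17835897-17836146 (minus strand) and Pparg, at the most downstream of its 3 listed starts, at chr6:115421816-115422065 (plus strand).
Fabp3: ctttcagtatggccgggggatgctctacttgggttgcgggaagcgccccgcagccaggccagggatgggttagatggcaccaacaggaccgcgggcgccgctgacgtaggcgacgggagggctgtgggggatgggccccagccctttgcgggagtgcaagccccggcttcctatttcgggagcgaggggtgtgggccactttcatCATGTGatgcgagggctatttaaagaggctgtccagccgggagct
Cd36: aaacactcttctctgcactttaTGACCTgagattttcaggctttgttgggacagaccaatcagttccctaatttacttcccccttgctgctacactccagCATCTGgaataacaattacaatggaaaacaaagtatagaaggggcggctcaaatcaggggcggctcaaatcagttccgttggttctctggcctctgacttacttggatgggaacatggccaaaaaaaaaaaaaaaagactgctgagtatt
Pparg: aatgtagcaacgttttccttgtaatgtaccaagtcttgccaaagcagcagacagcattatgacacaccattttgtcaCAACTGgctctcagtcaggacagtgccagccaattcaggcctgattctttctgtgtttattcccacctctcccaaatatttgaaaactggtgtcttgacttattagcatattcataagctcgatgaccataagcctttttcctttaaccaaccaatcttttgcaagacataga
The table held 7 windows for 4 of the 6 genes, Cd36, Fabp3, Lipe and Pparg. CANNTG was in 6 of the 7, and 66.2% of all 32851 windows hold it. AGGTCA on either strand was in 3 of the 7, those of Cd36 and of the 2 upstream starts of Pparg, against 14.0% of all windows. The pair AGGTCANAGGTCA, the direct repeat bound by PPAR receptors, which contains AGGTCA, was in 0 of the 7 and in 0.0335% of all windows. A match describes letters in a window and not a bound site, and which start the probe of a gene reports on was not analysed here.

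Replicates 1 and 6 stood apart from the other arrays in overall signal. The summed intensity was 165.3 on replicate 1 and 13.8 on replicate 6, with 35.2 to 41.3 on replicates 2 to 5, all in deposited units. Each array was therefore set to the median of the 175 probes above 0 on all arrays, and levels are log2 intensities relative to that median. As a bound on background noise, the lowest value of an array was taken without its sign, 0.0144 on replicate 1 and 0.0011 to 0.0028 on the others. The 7 fibre markers on the array (of 8 listed), among them the slow myosin Myh7 and myoglobin (Mb), exceeded it on every array. Of the 203 named genes 123 did so, these 7 included, so the count says little about the tissue. Of 9 adipocyte markers, 3 were on the array, and these were Fabp4, Pparg and Lipe themselves, so fat cells could not be checked by independent markers. Adipoq, Lep and Plin1 were not among the named probes. Both leukocyte markers on the array (of 8 listed), Il1b and Il6, were at or under the bound on all 6 arrays.

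The membrane carrier Cd36 was far above background and, relative to the array median, even. Its deposited intensities were 0.351, 0.101, 0.0928, 0.0801, 0.0937 and 0.0346 on replicates 1 to 6, at least 24.4 times the noise bound. Relative to the array median these were 2.44, 2.76, 2.59, 2.30, 2.47 and 1.81 on the log2 scale. Replicate 6 was low and the other 5 lay close together. The mean level was 2.39 ± 0.33 log2 units (SD, n = 6), a 1.93-fold range. Without replicate 6 the SD was 0.17 and the range 1.37-fold.

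Lpl, the lipase of the capillary wall, was also far above background. It gave 0.227, 0.0857, 0.0477, 0.0545, 0.0523 and 0.0666 in deposited units on replicates 1 to 6, or 1.81, 2.51, 1.63, 1.74, 1.63 and 2.75 log2 units relative to the array median. Replicates 2 and 6 were high, and the other 4 lay within 1.63 to 1.81. Its mean was 2.01 ± 0.49 (SD, n = 6), a 2.17-fold range. The order of arrays depended on scaling: Lpl was highest in replicate 6 under median, quantile and summed intensity scaling, and in replicate 1 after scaling to 28S ribosomal RNA or with no scaling. The 28S values themselves were whole hundredths on all 6 arrays, between 1.35 and 3.83 in deposited units.

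Of the cytosolic carriers, the fibre form had the smaller SD relative to the array median, but not after scaling to summed intensity. Fabp3 gave 0.0975, 0.0196, 0.0196, 0.0172, 0.0270 and 0.0098 in deposited units on replicates 1 to 6, between 6.77 and 12.3 times the noise bound. Its levels were 0.59, 0.39, 0.35, 0.08, 0.68 and -0.01, with a mean of 0.34 ± 0.27 log2 units (SD, n = 6) and a 1.61-fold range. Replicates 4 and 6 were low and replicates 1 and 5 high, with no sample set apart. Fabp4 gave 0.459, 0.0929, 0.0816, 0.0692, 0.0636 and 0.0231 in deposited units, at least 21.0 times the bound. Its levels were 2.83, 2.63, 2.41, 2.09, 1.91 and 1.22, with a mean of 2.18 ± 0.58 (SD, n = 6) and a 3.04-fold range. Replicate 1 was highest and replicate 6 lowest, and without replicate 6 the SD was 0.38. In deposited units, which keep the difference in overall signal, the range was 9.95-fold for Fabp3 and 19.9-fold for Fabp4. Scaled to summed intensity, both had an SD of 0.28. These are values of 6 samples, and no test was made of the difference in spread.

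Lipe, the lipase of stored fat, was not measurable. Its deposited values were -0.0024, 0.0028, -0.0010, 0.0007, -0.0011 and -0.0008 on replicates 1 to 6. It was above 0 on 2 of 6 arrays and above the noise bound on 1, replicate 2, where it reached 1.33 times that bound. Values at or under the bound do not show that the transcript was absent, and no mean or SD is given.

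Pparg, the fat cell regulator, had the widest spread of the 5 measurable genes relative to the array median, and also after quantile normalization (SD 1.21) and summed intensity scaling (1.55). In log2 deposited intensity, with no scaling, the SD of Fabp4 (1.40) and Fabp3 (1.11) exceeded that of Pparg (1.08). After 28S scaling that of Fabp4 (1.09) exceeded that of Pparg (1.04). Pparg gave 0.0276, 0.0139, 0.0049, 0.0080, 0.0100 and 0.0345 in deposited units on replicates 1 to 6. Relative to the array median the levels were -1.23, -0.11, -1.65, -1.03, -0.76 and 1.80, with a mean of -0.50 ± 1.24 log2 units (SD, n = 6) and an 11.0-fold range. Replicate 6 was far above the rest and replicate 2 next. Without replicate 6 the SD was 0.57 and the range 2.91-fold. The signal was 31.4 times the noise bound on replicate 6 but 1.92 and 1.88 times on replicates 1 and 3, so the lower end of the range lies near background. Replicate 6 held the highest Pparg value and replicate 3 the lowest under all 5 scalings, deposited units included.

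**Figure D1:**
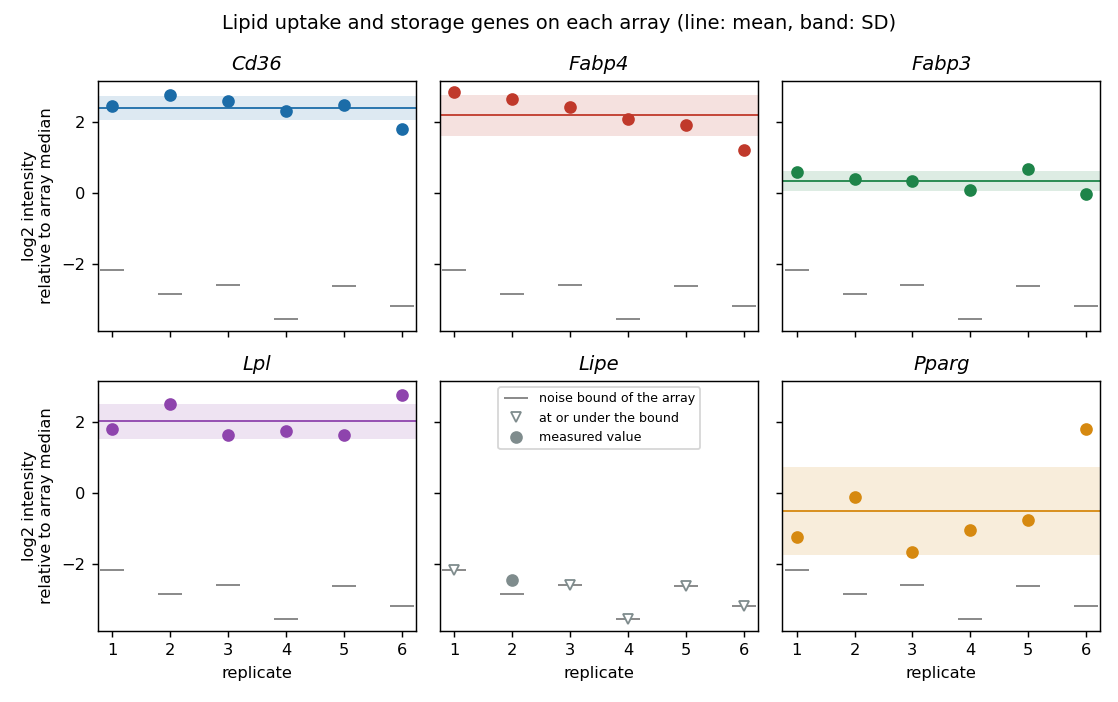
Log2 intensity relative to the array median (vertical axis) on replicates 1 to 6 (horizontal axis) for each of the 6 genes. Lines and bands are the mean and SD of 6 arrays, grey bars the noise bound of each array, and open triangles values at or under it; Lipe exceeds the bound on replicate 2 alone, and Pparg reaches 1.80 on replicate 6.

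Against 150 named genes above the noise bound on at least 4 of 6 arrays, the genes spread from the even to the variable end. The median SD of these 150 was 0.61 log2 units, with the middle 50% between 0.45 and 0.83. In order of rising SD, Fabp3 held place 10, Cd36 place 17, Lpl place 46, Fabp4 place 71 and Pparg place 140. Of the fatty acid oxidation list, 6 of 16 genes were on the array. All 6 exceeded the bound on every array, as did 123 of the 203 named genes. The SDs of these 6 ran from 0.21, for the mitochondrial carrier Ucp3, to 0.92, for the medium-chain dehydrogenase Acadm, with a median of 0.38. Cpt1b, which passes fatty acids into mitochondria, had 0.43, and the nuclear receptor Ppara 0.33. Dgat1, an enzyme of triglyceride synthesis and the only one of 11 listed synthesis and storage genes on the array, had an SD of 0.51. It was among the 74 of the 150 genes with their lowest level in replicate 6, as were Fabp4, Cd36 and Fabp3. Places in this order are a description, since the genes had been chosen with earlier results known.

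**Figure D2:**
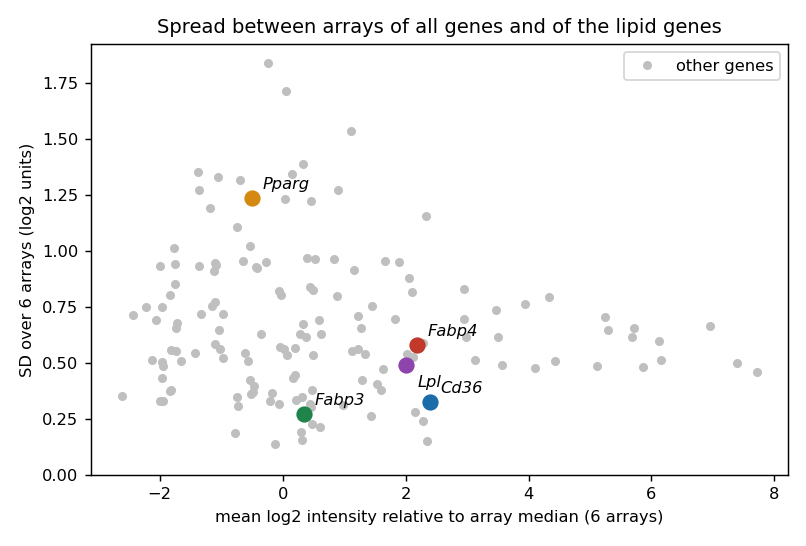
SD over 6 arrays against mean log2 intensity relative to the array median, 1 point a gene for 150 genes; the 5 measurable lipid genes are coloured and named. Fabp3 (SD 0.27) and Cd36 (0.33) lie near the lower edge and Pparg (1.24) near the upper.

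Relative to the array median, Lpl and Pparg were high in replicate 6 and Cd36 and Fabp4 low. The level in replicate 6 minus the mean of replicates 1 to 5 was -0.43 for Fabp3, -0.71 for Cd36 and -1.15 for Fabp4, against 0.88 for Lpl and 2.76 for Pparg. Over the 150 genes this difference had a median of -0.44, with a 5th percentile of -1.99 and a 95th of 1.66, so Fabp3 lay at that median. The signs depended on scaling: after summed intensity scaling the difference was 0.34 for Fabp3, 0.066 for Cd36 and -0.38 for Fabp4, against 1.66 for Lpl and 3.53 for Pparg, with a median of 0.33 over the 150 genes. In log2 deposited intensity Lpl was at -0.20, against a median of -1.53. Relative to the median of the 150 genes, Pparg and Lpl were above and Cd36 and Fabp4 below. A single factor per array shifts a gene and that median alike, so only quantile normalization is a separate check. There the difference was 2.76 for Pparg, 1.37 for Lpl, -0.68 for Cd36 and -0.87 for Fabp4, against a median of -0.18. From the highest down, Pparg held place 2 and Lpl place 26, whereas Fabp3, Cd36 and Fabp4 held places 75, 90 and 117. In deposited units, where 127 of the 150 genes were highest in replicate 1 and 104 lowest in replicate 6, Pparg was among 6 genes (4%) highest in replicate 6. The others were Agtr2, Cdk4, Efnb1, Itga8 and Mmp2, named here after their values were seen.

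Markers of fibres and of other cell types also differed in replicate 6. Relative to the array median, all 6 fibre markers other than Fabp3 were lower there, by differences of -0.75 to -1.18. On that scale most of the 150 genes were lower there too, with a median difference of -0.44. Of the 150, 74 were lowest in replicate 6. After summed intensity scaling 4 of the 6 were lower, with differences of -0.41 to 0.024, against a median of 0.33 over the 150 genes. After quantile normalization 2 of the 6 were lower, with differences of -0.30 to 0.21, against a median of -0.18. The exact share of all genes that were lower is not given here, so the counts alone are no trait of the fibre markers. Their summed intensity with Fabp3 was 152 times the array median in replicate 6, against 200 to 412 times in replicates 1 to 5. Of the 7 endothelial markers, 5 were higher on the median scale, from 0.20 for the VEGF receptor Kdr to 1.36 for the VEGF receptor Flt1, and 2 were lower, the angiopoietin receptor Tek (-0.28) and the cadherin Cdh5 (-0.42). The median over the 150 genes was -0.44, and other scalings are not given for these markers. The share of all genes that were higher is not given either, so the count is no trait of the endothelial markers. Flt4, among those higher at 1.17, was under the noise bound on replicates 1 and 3 and set to it there. Of the 3 fibroblast markers on the array, the receptor Pdgfra differed by 0.84, the receptor Pdgfrb by -0.12 and the matrix protein Fn1 by -1.09. The summed intensity of the endothelial markers was 13.1 times the median in replicate 6, against 9.15 to 16.2 times in the others. The part of cell composition in the Pparg and Lpl values was not tested.

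**Figure D3:**
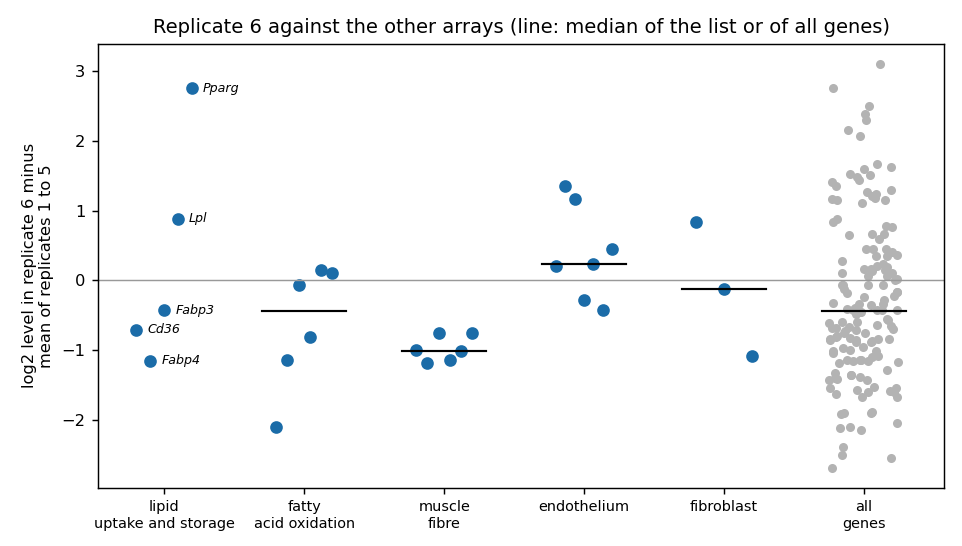
Log2 level relative to the array median in replicate 6 minus the mean of replicates 1 to 5 (vertical axis) for the 5 measurable lipid genes, for listed genes of 4 kinds and for all 150 genes, with 1 point a gene and a line at the median of each list. Pparg (2.76) and Lpl (0.88) lie above 0, Fabp3, Cd36 and Fabp4 below it, and all fibre markers below it, with the median of all 150 genes at -0.44.

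The fibre carrier was then set against the adipocyte genes by ratios within each array. A single factor per array (median, summed intensity, 28S or none) cancels in them, but quantile normalization does not. Each log2 ratio was expressed as its deviation from its own mean, since levels of different probes cannot be compared. The ratio of Fabp3 to Fabp4 deviated by -0.40, -0.41, -0.22, -0.17, 0.60 and 0.60 on replicates 1 to 6. Replicates 5 and 6 held more Fabp3 for their Fabp4 than the other 4, over a 2.01-fold range (SD 0.47). The ratio of Fabp3 to Pparg deviated by 0.98, -0.34, 1.16, 0.26, 0.59 and -2.66, a 14.1-fold range (SD 1.41). For Fabp4 to Pparg, both adipocyte genes, the deviations were 1.38, 0.06, 1.38, 0.44, -0.01 and -3.26, a 24.9-fold range (SD 1.71). Replicate 6 was far below the other arrays in both ratios to Pparg. Without it the range was 2.84-fold for Fabp3 to Pparg and 2.62-fold for Fabp4 to Pparg, and with the noise bound added to each value it was 9.67-fold and 16.6-fold over all 6 arrays. After quantile normalization the SDs were 0.44 for Fabp3 to Fabp4, 1.38 for Fabp3 to Pparg and 1.54 for Fabp4 to Pparg, the last over an 18.9-fold range, and replicate 6 was again lowest in both ratios to Pparg.

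The ratio SD of Fabp4 was thus smaller with the fibre carrier, 0.47, than with Pparg, 1.71. Cd36 to Fabp4 had an SD of 0.35 and a 1.96-fold range, which was 1.37-fold without replicate 1. Lpl to Pparg spanned 5.04-fold (SD 0.83), lowest in replicate 6, and 1.86-fold without that array. Over the 7503 pairs of genes above the bound on all arrays, the SD of such ratios had a median of 0.73, with 5th and 95th percentiles of 0.30 and 1.69. Against 6 fibre markers (the myosins Myh1, Myh2, Myh4 and Myh7, Mb and desmin, Des), the ratio of Fabp4 had SDs of 0.16 to 0.47, with a median of 0.30. For Fabp3 these SDs were 0.46 to 0.68, with a median of 0.52, for Cd36 the median was 0.43, for Lpl 0.91 and for Pparg 1.70. After quantile normalization the order of both carriers turned, with a median of 0.49 for Fabp4 and 0.37 for Fabp3. Against the 6 oxidation genes the median ratio SD was 0.43 for Fabp3, 0.47 for Cd36, 0.48 for Fabp4, 0.75 for Lpl and 1.49 for Pparg.

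**Figure D4:**
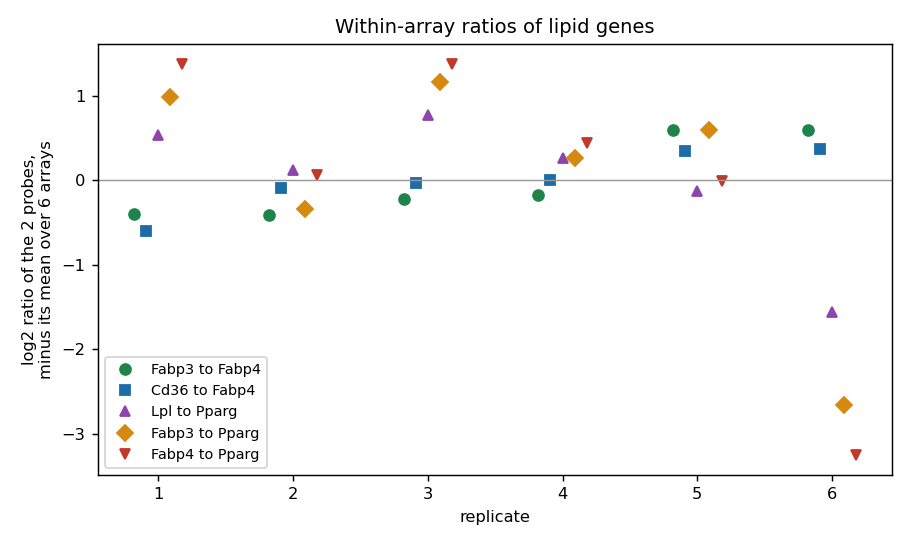
Deviation of 5 within-array log2 ratios from their own means (vertical axis) on replicates 1 to 6 (horizontal axis), with 1 symbol a ratio. The ratios to Pparg drop to -2.66 and -3.26 in replicate 6, while Fabp3 to Fabp4 stays within -0.41 to 0.60.

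Correlation over the 6 arrays was tested for each pair of genes. Of the 10 pairs among the 5 measurable genes, 4 had a positive r and 6 a negative one. The signs split the genes into Cd36, Fabp3 and Fabp4 on one side and Lpl and Pparg on the other. With all genes the median r was 0.35 for Cd36, 0.36 for Fabp4 and 0.21 for Fabp3, against -0.38 for Lpl and -0.55 for Pparg. The same split was thus seen against all genes and is no trait of these 10 pairs. Lpl with Pparg had r = 0.90, with p = 0.0194 in a two-sided exact permutation test and 0.185 after adjustment over all 11175 pairs of the 150 genes. Spearman's rho for it was 0.60 (p = 0.242 by the same exact test, 0.538 adjusted). Cd36 with Fabp4 had r = 0.84 (exact p = 0.0444, 0.236 adjusted) and a rho of 0.54 (exact p = 0.297, 0.580 adjusted). No pair passed adjustment, and 2 of 10 were below 0.05 unadjusted, both positive. Among all 11175 pairs 11.5% were positive and below 0.05, and 8.34% negative and below 0.05, so an unadjusted p below 0.05 was common over all genes and 2 of 10 is read against that share. After adjustment 0% of all pairs passed, and the smallest p that 6 arrays can give is 0.00139. The 10 pairs share 5 genes and are not independent.

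The 3 pairs among Fabp3, Fabp4 and Pparg had r closer to 0 than Lpl with Pparg and Cd36 with Fabp4 did. Fabp3 with Fabp4 had r = 0.58 (exact p = 0.218, 0.458 adjusted) and a rho of 0.43 (exact p = 0.419, 0.681 adjusted). Fabp3 with Pparg had r = -0.56 (exact p = 0.257, 0.498 adjusted) and a rho of -0.26 (exact p = 0.658, 0.830 adjusted). Between the adipocyte genes Fabp4 and Pparg r was -0.74 (exact p = 0.0972, 0.317 adjusted) and rho was -0.54 (exact p = 0.297, 0.580 adjusted). Without replicate 6 these r values were 0.13, 0.09 and -0.00034, and a p that misses the threshold with 6 samples does not show that the genes were unrelated. Without the 2 arrays farthest from the median of the gene named first, r was 0.98 for Fabp3 with Fabp4, -0.04 for Fabp3 with Pparg, 0.25 for Fabp4 with Pparg, 0.23 for Cd36 with Fabp4 and 0.04 for Lpl with Pparg. These arrays were picked by the first gene's own values, which narrows its spread. For Lpl with Pparg they were replicates 2 and 6, the 2 samples with high Lpl. Lpl then lay within 1.63 to 1.81, so this r cannot show which samples the relation rested on. For Lpl with Pparg r was 0.81 without replicate 6 alone and 0.96 without replicate 2 alone.

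Of the 10 pairs, 2 kept their sign under all 5 scalings. The share of all pairs that did so is not given here, so the count is no trait of these genes. Over all pairs the median r was 0.11 under median scaling, 0.82 in deposited units and 0.70 after 28S scaling. Lpl with Pparg and Cd36 with Fabp3 were positive under all 5 scalings, from 0.61 to 0.98 and from 0.44 to 0.97. Cd36 with Fabp4 reached 0.99 after 28S scaling (exact p = 0.00417, 0.0418 adjusted), where 14.5% of all pairs passed adjustment and 39.2% were positive and below 0.05, and was -0.31 after scaling to summed intensity. In deposited units all 10 r values were positive and 3 had an exact p below 0.05, where 46% of all pairs were positive and below 0.05. With the log2 summed intensity, r was 0.85 for Fabp4, 0.67 for Fabp3 and 0.52 for Cd36, against -0.53 for Lpl and -0.70 for Pparg. Over the 150 genes the median was 0.40, with 5th and 95th percentiles of -0.88 and 0.92, so these genes all lay within the common span.

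**Figure D5:**
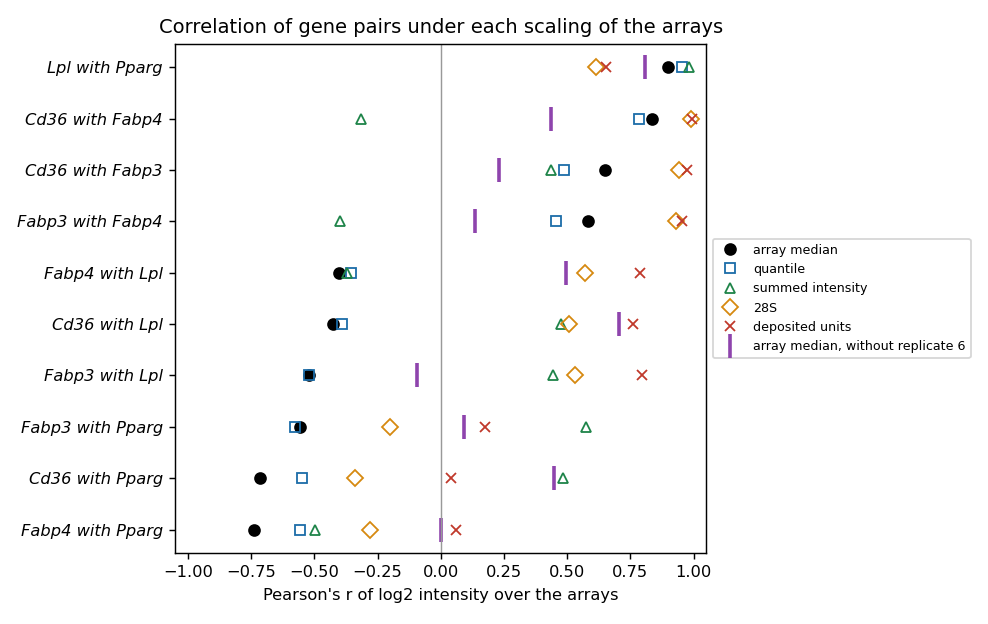
Pearson's r of log2 intensity (horizontal axis) for the 10 gene pairs (rows), with 1 symbol for each scaling of the arrays and a bar for median scaling without replicate 6. Lpl with Pparg lies between 0.61 and 0.98 under every scaling, while all 6 pairs of Lpl or Pparg with the other genes fall on both sides of 0.

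The genes most like each member over the 6 arrays were sought among 122 others above the bound on all arrays, as a description with no test. Nearest to Cd36 were the thrombospondin Thbs1 (r = 0.95) and the hypoxia factor Hif1a (0.95), at -0.00093 and 0.17 after scaling to summed intensity. Fabp4 was nearest to the hyaluronan receptor Cd44 (0.98) and the growth factor Pdgfb (0.98), and these r values stayed at 0.93 or above under all 5 scalings. Fabp3 had no close match, with 0.81 for follistatin (Fst) and 0.78 for the topoisomerase Top1. Lpl was nearest to lactate dehydrogenase Ldha (0.94) and Pdgfra (0.93), both at 0.89 or above under all scalings. Nearest to Pparg were the ephrin Efnb1 (0.94; 0.92 or above under all scalings) and Lpl (0.90). The points of each correlation are the same 6 arrays and share their overall signal.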

How the data were processed

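Total RNA of 6 soleus samples (1 group of 6) was measured on expression arrays. For 223 probes the authors deposited 1 linear intensity on each array, some below 0, so background had been subtracted. Scanner, array type and normalization are not given in the sources used here. Through the platform annotation, 205 probes had 1 gene each (203 genes) and 18 stayed unnamed; 6 of 6 members matched the gene table of GRCm38.p6. For a gene with 2 probes the brighter one was used. Values at or under the noise bound were set to it, scaled to the array median and converted to log2, with no pseudocount.

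Pearson's r over arrays was tested two-sided by exact permutation over the 720 pairings, for all pairs of 150 genes, with Benjamini and Hochberg adjustment over 11175 pairs, and was tested on simulated data. The members, lists and tests were chosen with earlier results of these data known. The text names the 6 members, the 2 genes most like each, and genes of the lists. Alternatives were 4 other scalings, no floor, the bound added, rank correlation and arrays left out. Under the other scalings, deposited units included, values were also converted to log2 before SDs, correlations and differences were computed. The number of arrays limits precision. Software was Python 3.11.15, numpy 2.4.6, scipy 1.17.1 and pandas 2.3.3.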

Additional observations from a re-analysis of the deposited data

Results flagged for a closer look

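In 6 of 18 sets of 6 values the highest or lowest sample lay farther from its neighbour, as a share of the range, than Dixon's 95% critical value; chance gives this in about 5% of sets, and the sets share arrays. In deposited units replicate 1 was that sample for Fabp4 (0.84 of the range), Fabp3 (0.80), Cd36 (0.79) and Lpl (0.79), and for the summed intensity of the array (0.82). In these units 127 of the 150 genes were highest in replicate 1, so these sets share its high signal. The 5% rate does not apply to them as separate sets, and the share of all genes meeting the criterion is not given here. Relative to the array median 0 of the 5 measurable genes met this criterion. The within-array ratio of Fabp4 to Pparg met it with replicate 6 as the low sample (0.70 of the range). A single factor per array cancels in these ratios. After quantile normalization the gap was 0.75 of the range for Fabp4 to Pparg, 0.650 for Fabp3 to Pparg and 0.647 for Lpl to Pparg. All of these passed the critical value, again with replicate 6 low.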

How the results depend on the processing

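Of the 10 correlations, 8 turned sign under at least 1 of the 4 other scalings (none under quantile normalization) and 4 without replicate 6. The share of all pairs that turned is not given here, and the cause was not tested. Against the values under median scaling, the sign turned in 29 of 150 recomputed correlations and 1 newly passed adjustment. In deposited units r was 0.76, 0.79 and 0.80 for Lpl with Cd36, Fabp4 and Fabp3, and 0.040, 0.061 and 0.17 for Pparg with the same genes. After 28S scaling it was 0.51, 0.57 and 0.53 for Lpl with these genes, and Cd36 with Fabp4, at 0.99, passed adjustment. After scaling to summed intensity r was -0.31 for Cd36 with Fabp4, -0.40 for Fabp3 with Fabp4, 0.48 for both Cd36 with Lpl and Cd36 with Pparg, 0.44 for Fabp3 with Lpl and 0.57 for Fabp3 with Pparg. Spearman's rho was 0.029 for Fabp4 with Lpl. Without replicates 1 and 6 together r was 0.71 for Cd36 with Lpl, 0.41 for Cd36 with Pparg, -0.22 for Fabp3 with Fabp4, 0.75 for Fabp4 with Lpl, 0.25 for Fabp4 with Pparg and 0.23 for Fabp3 with Pparg. Without the 2 arrays farthest from the median of the first gene it was 0.75 for Fabp4 with Lpl, 0.25 for Fabp4 with Pparg and 0.17 for Fabp3 with Lpl.

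With each array left out in turn, r ranged from -0.96 to 0.70 for Cd36 with Lpl, -0.96 to 0.45 for Cd36 with Pparg, -0.74 to 0.50 for Fabp4 with Lpl and -0.76 to 0.092 for Fabp3 with Pparg, positive only without replicate 6 in each. With 4 or 5 arrays the permutation test has only 24 or 120 pairings, and no pair of members passed adjustment, so these are values only. Lpl with Pparg stayed between 0.81 and 0.96. The log2 range of ratios ran from 1.50 to 3.82 for Fabp3 to Pparg, 1.39 to 4.64 for Fabp4 to Pparg and 0.90 to 2.33 for Lpl to Pparg, lowest without replicate 6, and from 0.46 to 0.97 for Cd36 to Fabp4, lowest without replicate 1.

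In log2 deposited intensity the SD was 1.07 for Cd36, 1.40 for Fabp4 and 1.11 for Fabp3. After 28S scaling it was 0.76 for both Cd36 and Fabp3. Of 65 recomputed SDs, 16 differed from the main value by over 1.5 times. Besides these they were 1.09 for Fabp4 after 28S scaling and 0.84 for Lpl in log2 deposited intensity. After summed intensity scaling they were 0.14 for Cd36, 0.28 for Fabp4 and 0.75 for Lpl. Without replicate 6 they were 0.17 for Cd36, 0.38 for Fabp4 and 0.57 for Pparg. Without replicates 1 and 6 they were 0.19, 0.32 and 0.64 for the same genes. No SD or correlation was computed for Lipe, at or under the bound on 5 of 6 arrays. The alternatives for the ratios and for the differences of replicate 6 were added after seeing the data. Signal over background limits Pparg on replicates 1 and 3. No paired analysis was possible because there was a single group.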
